A study of Rattus norvegicus with 3 samples.

Results

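Cytosolic ribosomal proteins are the proteins of the ribosomes that translate nuclear mRNAs, and their genes were followed here across 3 pools of irradiated rat soleus. Members were taken by symbol, as Rpl or Rps followed by a digit together with Rplp0, Rplp1, Rplp2 and Rpsa, leaving out the Rps6k kinases and pseudogene symbols. This gave 73 of the 14506 genes with a single symbol in the platform annotation. Of these, 42 encode canonical proteins of the large (60S) subunit and 26 of the small (40S) subunit. The other 5 are Rpl22l1, Rpl36al1, Rpl37l1 and Rps4y2, which stand beside a canonical gene, and Rps19bp1, which encodes a partner of the small-subunit protein Rps19 and no ribosomal protein. The symbol rule uses no measured value, but members and lists were chosen with earlier results of these data known.

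Soleus, a slow postural muscle of the hind limb, came from rats aged 7 weeks of a strain labelled Brown. Group Ct was irradiated continuously for 2 weeks to a total absorbed dose of 50 mSv, group DN received the same irradiation with denervation, and group TS the same irradiation with tail suspension. All 3 groups were irradiated, so setting DN or TS against Ct asks what the loss of nerve or of load adds under irradiation, and irradiation itself has no comparison here. RNA of 6 rats per group was pooled and each pool was read on 1 array, although the series text speaks of 2 arrays, so the data hold no spread between samples and no test between groups is possible. Every difference below describes these 3 pools, and no p-value is given.

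Each ribosome holds a single copy of nearly all of its proteins, and cells usually make these mRNAs in step with each other. Most of them begin with a tract of pyrimidines, the 5′-terminal oligopyrimidine or TOP motif, through which the kinase mTORC1 and the binding protein Larp1 set how well they are translated. In skeletal muscle the number of ribosomes is one limit on protein synthesis, and it is known to change with load and with growth stimuli. An array measures how much of each mRNA is present and not how much of it is translated.

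The annotated start sequences show this feature in part of the members. Of the 73 members, 62 were found in a RefSeq table of gene starts on the GRCr8 assembly (60 by gene identifier, the others by symbol), and 23 of them (37.1%) carried at the annotated start a C followed by at least 4 bases that are each C or T, read on the transcribed strand only. The same tract stood at 2.6% of all 33469 starts in the table and at 2.7% of the 8410 compared genes that could be matched. A tract opening within 5 bases of the start was found for 61.3% of the members and 17.0% of all starts. The starts below, 15 bases before and 15 from the start on, belong to members named in the results. They were chosen with their values known, because tract-bearing members lay at both ends of the differences described below; capitals mark the tract at the start.
Rpl37a, chr9:81748076-81748105, plus strand: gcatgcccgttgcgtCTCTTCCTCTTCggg
Rps26, chr7:1643390-1643419, minus strand: gagagccgccgggtcCTCTTTCgagtcttg
Rpl10, chrX:157205835-157205864, plus strand: caggcgtgggagcgtCTCTTTTCCTCTggc
Rpl39, chrX:121195882-121195911, minus strand: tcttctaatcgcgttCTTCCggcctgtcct
Rps27, chr2:177964592-177964621, minus strand: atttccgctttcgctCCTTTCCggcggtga
Rpsa, chr8:128728864-128728893, plus strand: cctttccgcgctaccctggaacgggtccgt
Rpl3, chr7:113507976-113508005, minus strand: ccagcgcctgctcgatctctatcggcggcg

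All 73 members passed the filter on low values, a mean over the 3 arrays of at least 5.72 (log2), which left 10154 genes to compare. They are among the brightest genes of the muscle. Their median level was 11.64 in Ct, 11.68 in DN and 11.91 in TS, against medians over all genes compared of 8.12, 8.13 and 8.25. Of the members, 60 lay at or above the 90th percentile of level and 19 stood among the 102 brightest genes. The highest was Rps29, a small zinc-binding protein of the 40S head, at 13.00 in Ct, 13.23 in DN and 13.47 in TS, followed by Rps3, which lines the mRNA entry channel, and Rps4x, encoded on the X chromosome. The highest value of the Ct and TS arrays was 13.99 and that of DN 13.90, so the brightest members lay close to the top of the arrays' range. At the dim end stood Rps27 (mean 6.16), Rps19bp1 (7.28) and Rps4y2 (7.35). Brightness also depends on the probes, so these levels do not rank the transcripts by abundance.

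**Figure D1:**
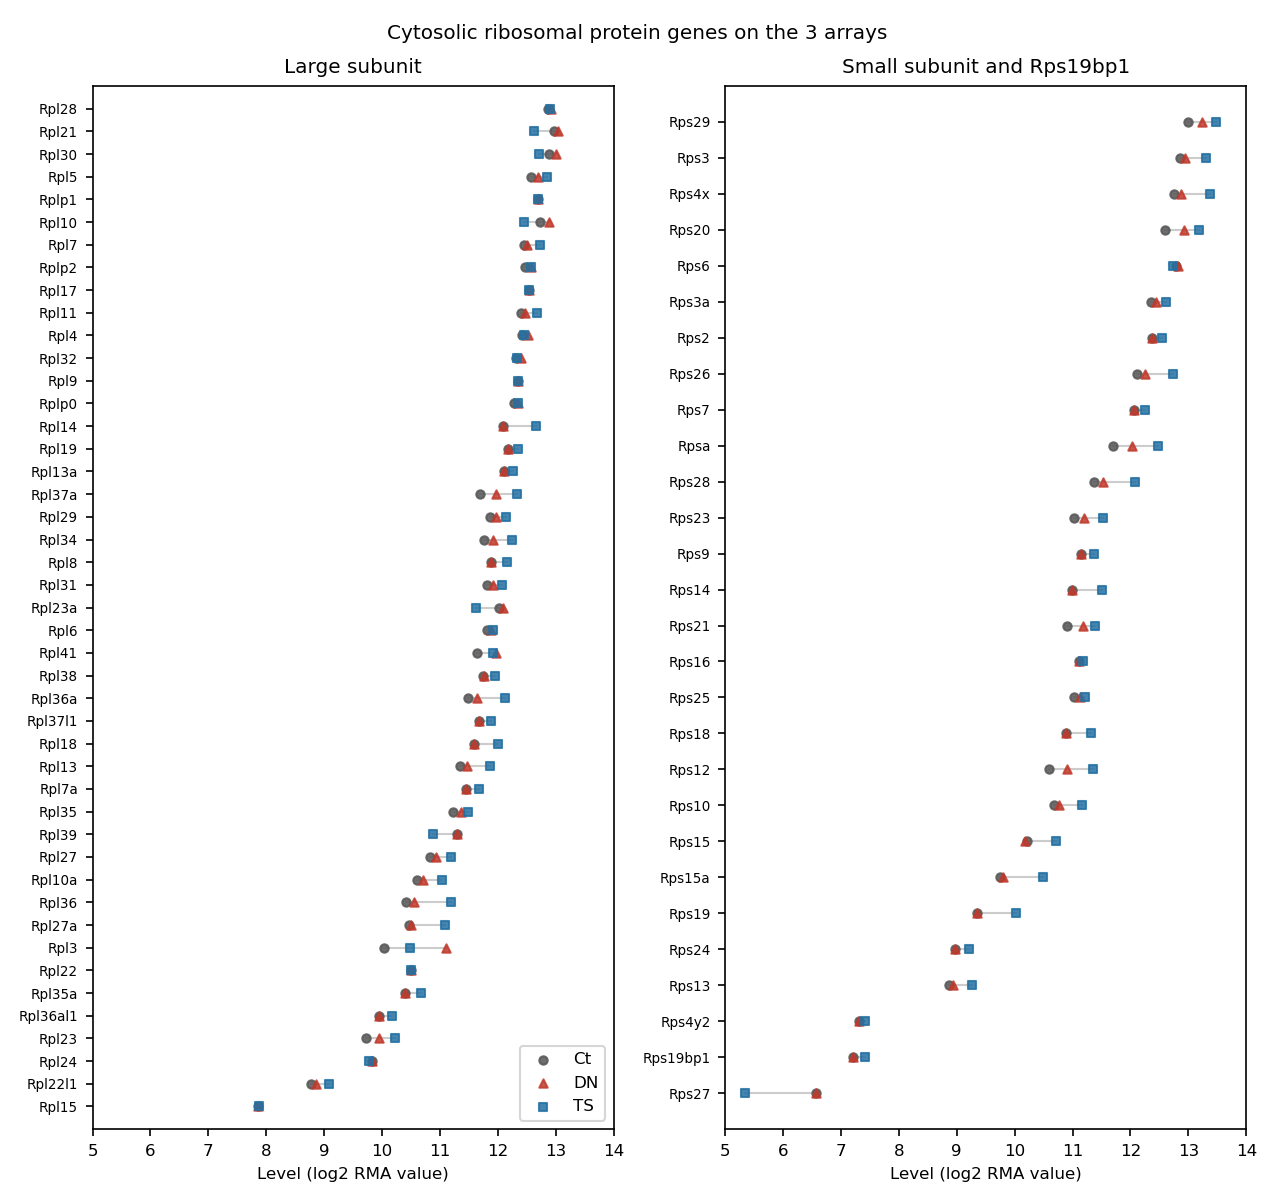
Levels (log2 RMA value, horizontal axis) of the 73 members on the Ct (grey circles), DN (red triangles) and TS (blue squares) arrays, ordered by mean level, with 1 array per group. Most blue squares lie to the right of the circles, by up to 0.78 for Rpsa, whereas Rpl3 is the member with DN farthest to the right and Rps27 that with TS far to the left.

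As a check of the tissue, the 9 soleus fibre genes set for this purpose, among them the slow myosin Myh7 and the light chain Myl3, all read between 11.31 and 13.99 on each array. Their mean level was 13.39 in Ct, 12.81 in DN and 13.08 in TS. Lymphocyte markers were dim on all 3 arrays (6 measured, mean 5.27, 5.27 and 5.25), and 4 of the 6 fell below the filter limit.

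In denervated soleus the ribosomal protein genes as a group lay close to Ct, with 1 exception, Rpl3. The median difference of the 73 members was 0.07 (log2), against 0.00 for all genes compared. Of the members 49 were higher in DN, 23 read exactly the same on both arrays and 1, Rps15, was lower, at -0.03. Over all genes compared 32.8% were above 0, 42.9% equal and 24.3% below. The probe-set summary used by the authors can return the same value for 2 of 3 arrays, so equality of 2 readings is no proof of equal expression. Both subunits lay alike, with medians of 0.07 for the large and 0.07 for the small.

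Rpl3 forms part of the peptidyl transferase centre, where the ribosome joins amino acids. It read 10.04 in Ct, 11.10 in DN and 10.48 in TS. DN was highest and Ct lowest, so that DN exceeded Ct by 1.06 (2.09-fold) and TS exceeded Ct by 0.44. It was the only member at least 1.5-fold (0.58 on the log2 scale) higher in DN, and no member was 1.5-fold lower, where 4.93% of all genes were 1.5-fold higher and 5.53% lower (10.5% together). A count of 1 in 73 is a smaller share than that background. Rpl3 was also the only member 2-fold higher, with none 2-fold lower, where 2.24% of all genes were higher and 2.24% lower (4.47% together). Rpl3 was measured by 1 probe set, which leaves no second reading of it on these arrays. Its muscle-enriched paralog Rpl3l, which replaces Rpl3 in adult fibres, was not analysed here, and sharing of signal between both was not tested.

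The members next in size in DN were far smaller. Rpsa, a protein of the 40S subunit also described as a laminin receptor, read 11.70 in Ct and 12.02 in DN, a difference of 0.32. Rpl41, the smallest ribosomal protein, stood at 11.64 and 11.96 (0.32), Rps20 at 12.60 and 12.92 (0.32), Rps12 at 10.58 and 10.90 (0.32), and Rpl37a at 11.69 and 11.96 (0.28). At a smaller limit of 0.32 on the log2 scale (by unrounded values), Rpl3 and Rpsa were the 2 members past it, both upwards, and 9.71% of all genes passed it upwards and 9.57% downwards (19.3% together). The members with equal values in Ct and DN included Rpl13a, Rpl14, Rpl17, Rpl18 and Rps19, whose loss on 1 allele causes Diamond-Blackfan anaemia in people.

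Suspended soleus held more transcripts of most ribosomal proteins than Ct, by small amounts. The median difference of the 73 members was 0.26 (log2), against 0.02 for all genes compared. Of the members 62 were higher, 2 equal and 9 lower, where 52.6% of all genes were higher, 24.7% equal and 22.7% lower. At the 1.5-fold limit 12 members (5.89% of all genes) were higher and 1 member (2.68% of all genes) was lower, 13 in all against 8.57% of genes. These counts came to larger shares of the members than the background in the upward direction and to a smaller one downwards. At the limit of 0.32, 29 members were higher and 4 lower, against 17.4% and 6.62% of all genes (24% together). None was 2-fold higher (1.37% of all genes) and Rps27 was 2-fold lower (0.689%, 2.06% together).

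Among the genes compared, the median level was 8.25 in TS and 8.12 in Ct, a shift of 0.13. Over probe sets the medians were closer, at 6.35 and 6.32, and the median of the gene-by-gene differences was 0.02. Centring by 0.13 therefore takes away more than the typical gene differed, and the members' counts depend on whether it is done. With each array centred on its median, the members' median became 0.13 while that of all genes became -0.12, 52 of 73 members remained above 0 (34.9% of all genes), and 5 were 1.5-fold higher (3.52% of all genes). The 10 that turned negative include the 3 stalk proteins, described below. In bulk tissue, fewer cells of a type and less RNA per cell cannot be told apart, which holds for each difference given here.

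**Figure D2:**
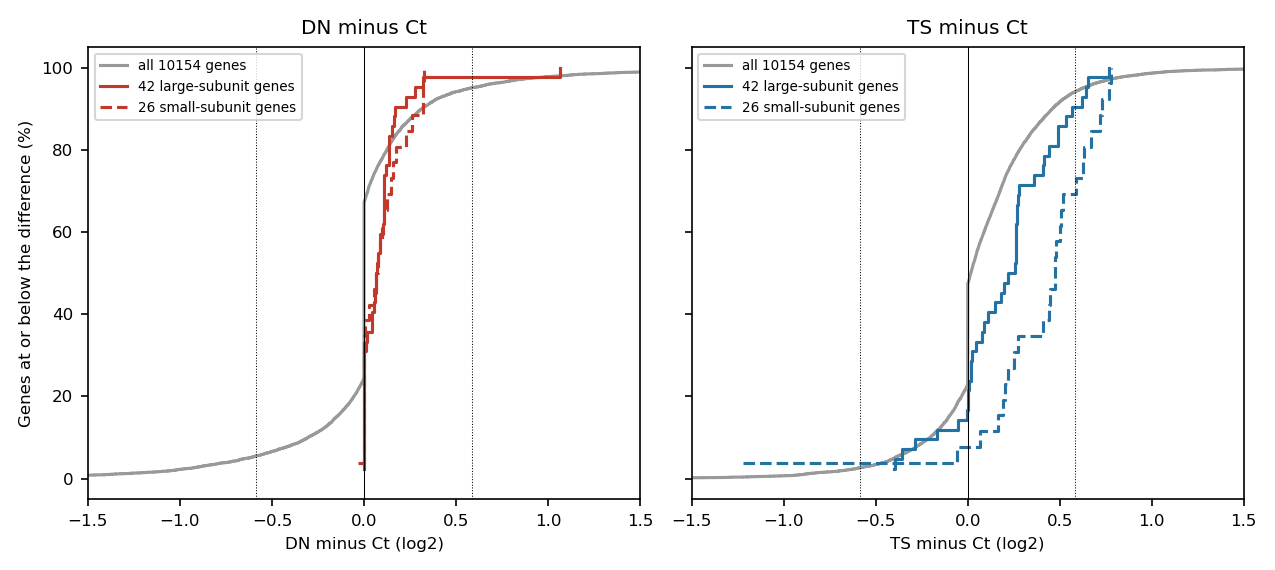
Cumulative share of genes (vertical axis, %) at or below each log2 difference (horizontal axis), with DN against Ct and TS against Ct drawn apart; grey, all 10154 genes compared, solid colour, the 42 large-subunit genes, dashed colour, the 26 small-subunit genes, dotted lines, 1.5-fold. In TS both coloured curves lie to the right of the grey one over most of their length, the small subunit (median 0.47) farther than the large (0.24), whereas in DN both cross 50% at 0.07.

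Small-subunit genes lay higher in TS than large-subunit genes. The 26 canonical small-subunit genes had a median of 0.47, with 24 above 0 and 8 at least 1.5-fold higher, and the 42 large-subunit genes a median of 0.24, with 33 above 0 and 4 at least 1.5-fold higher, where 52.6% of all genes were above 0 and 5.89% were 1.5-fold higher. With centring 4 small-subunit genes and 1 large-subunit gene (2.38%) reached 1.5-fold upwards, against 3.52% of all genes. Under 9 of the alternative settings tried the small-subunit median stayed between 0.34 and 0.50 and the large-subunit median between 0.11 and 0.26. With only genes that have 1 probe set the order turned, at 0.07 over 5 small-subunit and 0.34 over 10 large-subunit genes. The difference between subunits was not tested, since members of 1 array are not replicates.

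Among small-subunit genes, Rpsa showed the largest difference, at 11.70 in Ct, 12.02 in DN and 12.47 in TS (0.78, 1.72-fold for TS minus Ct). Rps12, a protein of the 40S beak, read 10.58, 10.90 and 11.35 in the same order (0.77), and Rps28, which lies at the mRNA exit, read 11.36, 11.52 and 12.08 (0.72). In these 3 genes TS was highest, Ct lowest and DN between. Rps15a read 9.75, 9.80 and 10.48 (0.73) and Rps19, needed to mature the 40S rRNA, 9.35, 9.35 and 10.02 (0.67). Here DN lay at or near Ct and TS stood apart. Rps26, also at the mRNA exit, was higher in TS by 0.63, Rps4x by 0.62 and Rps20 by 0.59, the last of them just past the limit of 0.58, and Rps29 by 0.47 and Rps3 by 0.45.

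Rps6, the protein of the 40S subunit that S6 kinases phosphorylate, read 12.79 in Ct, 12.82 in DN and 12.73 in TS. The 3 arrays lay within 0.09 of each other for it. Rps27 was the exception of the small subunit, with 6.57 in Ct, 6.57 in DN and 5.35 in TS, a difference of -1.22. Its only probe set lay at the 9th percentile of level, far below every other canonical member, and its TS reading fell under the filter limit. With 32 added on the linear scale the difference was -0.80. Rps4y2 (0.11) and Rps19bp1 (0.21), both dim, lay below the median of the whole group.

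Among large-subunit genes, Rpl36 stood highest in TS, with 10.42 in Ct, 10.55 in DN and 11.18 in TS (0.77, 1.70-fold). Rpl36a read 11.47, 11.64 and 12.13 (0.65), Rpl37a 11.69, 11.96 and 12.33 (0.64), and Rpl27a 10.46, 10.50 and 11.08 (0.62). All 4 read highest in TS and lowest in Ct, and with centring all but Rpl36 came under 1.5-fold. Rpl14 followed at 0.57 (12.09, 12.09 and 12.66), short of the limit. Rpl5 and Rpl11, which join the 5S rRNA and can bind the p53 regulator Mdm2 when ribosome assembly fails, were higher by 0.26 each, at the group's median. Rpl7 stood at 0.27 and Rpl18 at 0.41.

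The stalk of the large subunit, which recruits elongation factors, differed little. Rplp0, its base, read 12.27 in Ct, 12.35 in DN and 12.35 in TS. Rplp1 read 12.69, 12.70 and 12.70, and Rplp2 12.47, 12.57 and 12.57. On the brightest probe sets the differences from Ct were 0.08, 0.01 and 0.11 in both comparisons. DN and TS gave equal values there for all 3, and under centring all 3 turned negative in TS. The second probe set of Rplp1 repeated 0.01 in both comparisons. That of Rplp0 gave 0.00 in DN and 0.16 in TS. The other probe sets of Rplp2 gave 0.01 in both, and 0.10 in DN with 0.20 in TS. Rpl22 (10.50 on each array), Rpl17 (12.53) and Rpl15 (7.86 in Ct and DN, 7.87 in TS) also showed nearly no difference, while Rpl22l1, the paralog of Rpl22, read 8.77, 8.85 and 9.09 (0.32 in TS).

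A further set of large-subunit genes was lower in TS, against the direction of the group. Rpl39, a short protein of the peptide exit tunnel, read 11.29 in Ct, 11.29 in DN and 10.88 in TS (-0.40). Rpl21 read 12.97, 13.04 and 12.62 (-0.36), and Rpl10, which joins the subunit last and is needed for it to become active, 12.73, 12.88 and 12.44 (-0.29). Rpl30 read 12.88, 13.00 and 12.72 (-0.17) and Rpl23a, a docking site at the tunnel exit, 12.01, 12.08 and 11.62 (-0.40). In each of these 5 genes TS was the lowest array, and in none was DN below Ct.

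Most members have several probe sets, though these are not always separate readings. The 73 members had 261 probe sets, 260 of them past the filter, and 18 members had 1, whereas 96.4% of all genes have 1. Among the 55 members with several, the pooled SD between probe sets of the same gene was 0.04 in DN against Ct and 0.16 in TS against Ct. This spread is technical, between readings of the same pool, and probe sets of a gene may share probes. All probe sets of a gene were above 0 in TS for 35 members and below 0 for 4, namely Rpl10, Rpl21, Rpl30 and Rpl39. In DN they were all above 0 for 27 members and all below 0 for none. These counts are on values without centring and include small differences, such as 0.01 on each probe set of Rplp1. No share over all genes stands beside them, since most genes have 1 probe set.

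The lower reading of Rpl21 in TS was seen on all 21 of its probe sets, from -0.73 to -0.26. That of Rpl39 was seen on all 7, from -0.44 to -0.21, several of them with identical values. Rpl23a was not uniform. Its brightest probe set gave -0.40, the other 5 lay between 0.00 and 0.10, and the mean of all was -0.02. Rpl9, at -0.00 on its brightest probe set, ranged from -0.77 to 0.00 over 9. Rps3, at 0.45 on its brightest probe set, stood at -0.07 on its other one, which was far dimmer (7.17 in Ct). The mean of both was 0.19.

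Of the 12 members 1.5-fold higher in TS, 3 passed the limit on every probe set: Rps12 (4 probe sets, 0.59 to 0.87), Rps28 (2, 0.69 and 0.72) and Rpl37a (2, 0.59 and 0.64). Rpl27a has 1 probe set. The 6 probe sets of Rps15a ran from 0.56 to 0.84 and the 10 of Rpl36 from 0.22 to 0.93, all above 0. Others rested more on the brightest probe set. The second probe set of Rps4x gave 0.10, that of Rpsa 0.40, the other 4 of Rps19 0.40 to 0.47, and the lowest of 6 for Rps26 0.03. When the probe sets of each gene were averaged, Rpl36a, Rps19, Rps20, Rps26 and Rps4x came under the limit, which left 7 members higher. The widest disagreement was that of Rpl31, where 1 probe set stood at 1.18 and the other 6 between 0.13 and 0.26.

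**Figure D3:**
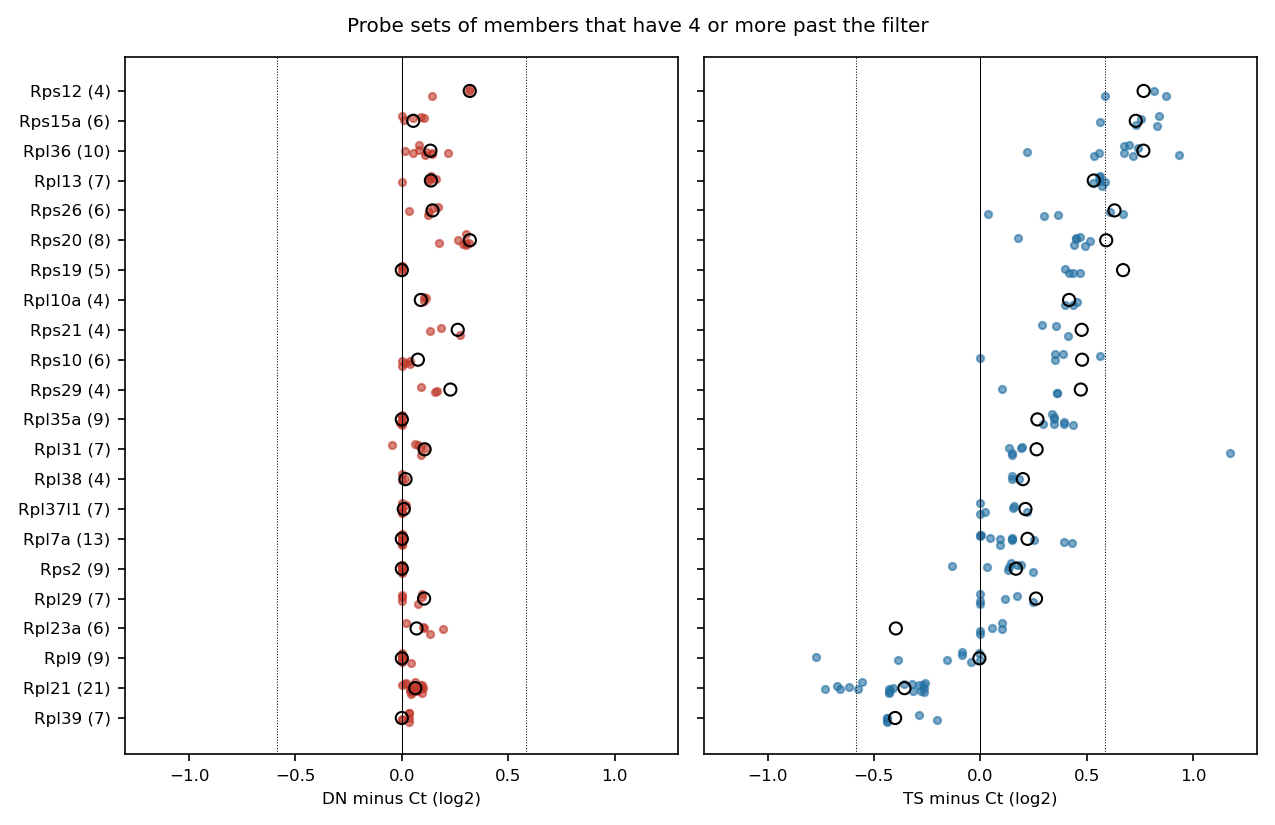
Log2 difference (horizontal axis) of each probe set past the filter for the 22 members with at least 4 such probe sets (number in parentheses), DN minus Ct in red and TS minus Ct in blue; open circles mark the brightest probe set, dotted lines 1.5-fold. In TS the probe sets of Rps12, Rps15a and Rpl36 all lie above 0 and those of Rpl21 and Rpl39 all below it, with Rpl31 holding 1 point at 1.18 far from its others.

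Over the 3 arrays together, 36 of the 73 members (49.3%) read lowest in Ct, higher in DN and highest in TS, an order that 13.7% of all genes showed. After centring, 31 members and 8.71% of all genes showed it. A further 5 members (6.85%) read highest in DN and lowest in TS, near the 4.35% of all genes with that order. Another 5 (6.85%) read lowest in Ct and highest in DN, against 8.48% of all genes. Set directly against each other, DN was below TS for 54 members and above it for 14 (50.3% and 23.3% of all genes), equal for 5 (26.3%), with a median of -0.21 (-0.00 for all genes) and -0.09 after centring. At 1.5-fold, Rps15a (-0.68), Rps19 (-0.67) and Rpl36 (-0.63) were lower in DN than in TS (5.93% of all genes), and Rpl3 (0.62) and Rps27 (1.22) were higher (3.2% of all genes, 9.13% together). Both shares of the members were close to or below the background. Centring brought the 3 lower ones under the limit and brought Rpl23a past it among the higher ones. This left 3 members (4.11%) higher and 0 lower, so the balance of directions turned. Over all 10154 genes it turned as well, with 470 (4.63%) higher and 382 lower after centring. The turn is therefore not particular to the members. At the limit of 0.32, 23 members were lower in DN than in TS and 6 higher (16.8% and 7.1% of all genes, 23.9% together). At 2-fold Rps27 was higher and none lower (1.2% and 1.74% of all genes, 2.94% together).

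Members with and without a tract at the start were also set side by side. The 23 members with a pyrimidine tract at the annotated start had a median of 0.26 in TS and ranged from -1.22 to 0.64, and the 39 without one had a median of 0.27 and ranged from -0.36 to 0.78. Of the starts printed above, those with the longest tracts, 12 bases each, belong to Rpl37a, higher in TS, and Rpl10, lower in TS. In DN the medians were 0.00 and 0.07. A tract opening within 5 bases of the start was found for 38 of the 62 matched members. The group of 39 therefore includes members with a tract close to the annotated start. For this reason the medians do not compare members that have the TOP motif with members that lack it. A match describes the letters at an annotated start and says nothing on translation.

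Genes that build ribosomes were also higher in TS. Of 46 ribosome biogenesis genes, 38 were above 0, the median was 0.35, and 9 reached 1.5-fold upwards and 0 downwards, against 52.6%, 5.89% and 2.68% of all genes (with centring the median was 0.22, 30 were above 0 and 5 reached it, against 34.9% and 3.52% of all genes). Tsr1, which acts in maturing the 40S subunit, read 8.56 in Ct, 8.78 in DN and 9.93 in TS (1.38). Nhp2, of the particles that modify rRNA, read 9.70, 9.76 and 10.60 (0.90), and Bop1, of 60S assembly, 7.93, 8.24 and 8.72 (0.79). TS stood apart from both other arrays in Tsr1 and Nhp2. In DN the list had a median of 0.00 with no member past 1.5-fold, where 10.5% of all genes were. Utp18 (0.54), Ltv1 (0.49) and the nucleolar Ncl (0.40) differed most.

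RNA polymerase I and the 5S machinery, which make the rRNA, had a median of 0.25 in TS (0.12 after centring) and 0.00 in DN over 12 genes. Of these, 11 were above 0 in TS and 8 after centring, against 52.6% and 34.9% of all genes. Polr1a, the largest subunit of polymerase I, read 7.39 in Ct, 7.53 in DN and 8.32 in TS (0.93). It was the only gene of this list past 1.5-fold (5.89% of all genes). Polr1e stood at 0.55 and Polr1c at 0.41 in TS. Taf1d (0.37), Polr1d (0.29) and Polr1e (0.18) led in DN. Myc, a transcription factor known to drive ribosome genes, read 8.10, 8.43 and 9.18 (1.07 in TS, 0.32 in DN). The Myc network as a list of 9 had medians of 0.06 in TS and 0.16 in DN. After centring its median in TS was -0.07, with 3 of 9 above 0, close to the share of all genes (34.9%). The Myc partner Max read 9.33, 10.15 and 9.56, highest in DN (0.82), and the related Mycn stood at -0.30 in TS.

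Other products of TOP mRNAs lay closer to Ct than the ribosomal proteins did. Over 18 genes the median was 0.08 in TS (-0.05 after centring) and 0.04 in DN. Eef1b2, an exchange factor for elongation, read 9.93 in Ct, 10.38 in DN and 10.74 in TS (0.80) and alone passed 1.5-fold (5.89% of all genes). The chaperone Nap1l1 was higher by 0.42 in both, Btf3 stood at -0.41 in TS, and Rack1, a scaffold on the 40S subunit, at 11.55, 11.55 and 11.92. Fau, whose product is cut to the 40S protein Rps30 and which the symbol rule does not take in, read 11.23, 11.35 and 11.48.

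Genes of mTORC1 and S6 kinase signalling were mixed. Of 18, 1 was 1.5-fold higher and 1 lower in TS (5.89% and 2.68% of all genes), with a median of 0.17 that came to 0.04 after centring, when none was higher. In DN 2 were higher and 2 lower (4.93% and 5.53% of all genes), with a median of 0.00. Eef2k, which slows elongation, read 8.28 in Ct, 9.03 in DN and 8.99 in TS. The kinase gene Rps6ka2 read 10.06, 8.87 and 9.44, and Sesn1, an inhibitor of mTORC1, 9.34, 8.42 and 9.43. Sesn3, of the same family, went the other way in DN (9.11, 9.87 and 9.08), and Tsc1, an inhibitor of the pathway, stood at 0.55 in TS. Mtor itself differed by 0.05 in DN and 0.30 in TS, and the S6 kinase gene Rps6kb1 by 0.24 and 0.15. Ribosomal stress and stalling genes had medians of 0.15 in TS (0.01 after centring) and 0.00 in DN. None of 10 was past 1.5-fold, where 8.57% of all genes were in TS and 10.5% in DN. Mdm2 stood at 0.38 in DN and 0.34 in TS, Pelo, which rescues stalled ribosomes, at 0.34 in TS and Ltn1 at 0.33.

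Mitochondrial ribosomal proteins, encoded in the nucleus but working on the few mRNAs of the organelle, did not share the direction. Of 68 genes 56 were below 0 in DN and 1 above, with a median of -0.16, and 9 were at least 1.5-fold lower, where 24.3% of all genes were below 0 and 5.53% were 1.5-fold lower. In TS the median was -0.02 and 1 gene was 1.5-fold lower (2.68% of all genes). After centring the median was -0.15 and 3 of the 68 genes were 1.5-fold lower. Over all 10154 genes the median was then -0.12 and 400 were 1.5-fold lower, so in TS the list lay near all genes. The 1 gene past the limit before centring was Mrpl40, which read 9.99 in Ct, 9.19 in DN and 9.08 in TS. Mrpl14 (-0.88) and Mrpl19 (-0.79) were lowest in DN beside it.

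**Figure D4:**
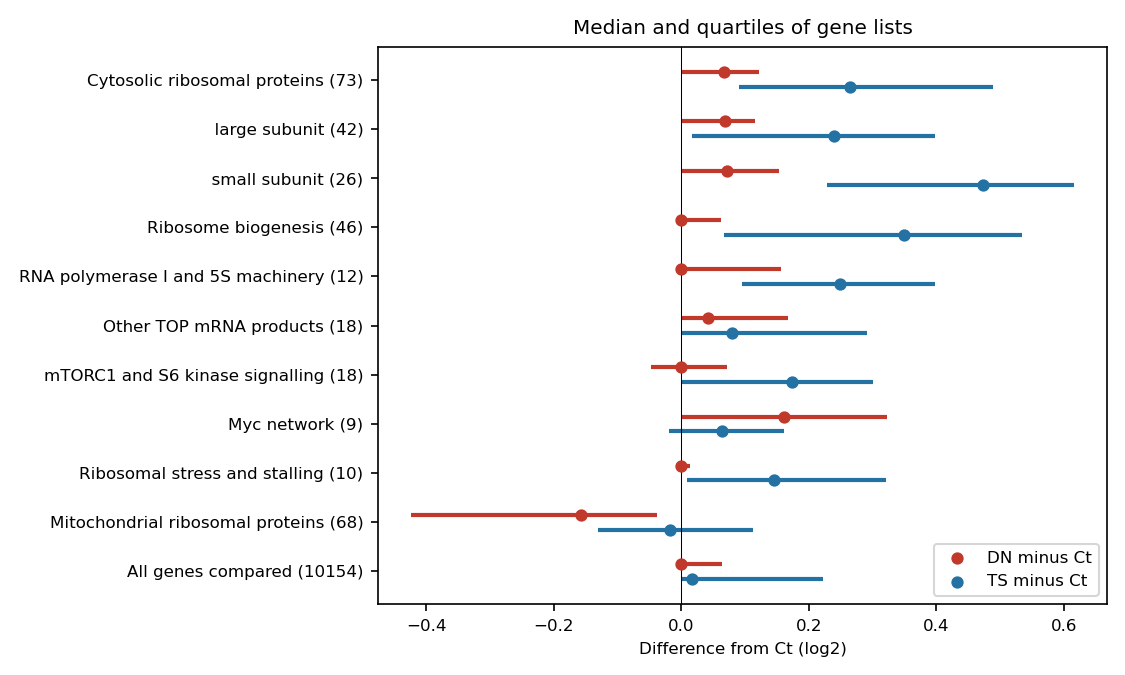
Median (point) and quartiles (bar) of the log2 difference from Ct (horizontal axis) for the cytosolic ribosomal proteins, their canonical subunits, the related lists and all genes compared, with the number of genes in parentheses; red, DN minus Ct, blue, TS minus Ct. The small subunit (0.47) and ribosome biogenesis (0.35) lie farthest right in TS, and mitochondrial ribosomal proteins lie left of 0 in DN (-0.16).

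Markers of some other cells also stood higher in TS. All 11 macrophage markers were above Ct in TS, 4 of them at least 1.5-fold, with Cd163 at 1.17, where 52.6% of all genes were above 0 and 5.89% were 1.5-fold higher. After centring 9 were above 0 and 2 reached 1.5-fold (34.9% and 3.52% of all genes). The list's summed level was 99.97 in Ct, 101.80 in DN and 105.98 in TS. Of 7 cycling-cell genes, 6 passed the filter and all 6 were higher in TS, 4 of them at least 1.5-fold, such as Ccnb1 (1.10), against the same 52.6% and 5.89% of all genes, and both counts were equal after centring. Their summed level, over all 7, was 47.00, 45.43 and 52.52. Fibroblast markers summed to 64.16, 64.40 and 64.95 and satellite cell markers to 48.63, 51.77 and 49.56. Endothelial markers summed to 58.49, 56.09 and 57.05, adipocyte markers to 38.69, 42.85 and 41.84, and erythroid markers to 33.92, 32.60 and 34.81. Such sums can rest on single markers, and markers of a list did not all go one way. In DN the satellite cell marker Myf5 stood at 2.00 and Chodl at -0.33. In TS the adipocyte markers Adipoq and Fabp4 stood at 1.62 and -0.43, and the erythroid Hbb and Hbb-b1 at 0.56 and -0.11. The part of these cells in the ribosomal protein readings was not tested.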

How the data were processed

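Biotin-labelled RNA of 3 pools was read on Affymetrix Rat Gene 1.0 ST arrays. The deposited log2 values were made by the authors with RMA in Expression Console, as a core-exon analysis, per the labels' text and per the submitters' processing notes; version and build are not given in the sources, and base 2 was read from the values. Of 29170 probe sets, 15310 had 1 symbol and were used. A gene was represented by its brightest probe set, and genes whose mean reached the 30th percentile were compared. Differences of log2 values were counted at 1.5-fold, at 2-fold and at a smaller limit of 0.32; the code was tested on simulated data. The number of arrays limits the precision. Members named were those past 1.5-fold, the 6 highest and lowest per comparison with Ct (ties by symbol), the 3 brightest and dimmest, and 21 set by symbol; of each related list, up to 3 per comparison. Rpl9 and Rpl31 were named after their values were seen. Members and lists were chosen with earlier results of these data known. Start sequences are from RefSeq (GRCr8). Python 3.11.15, pandas 2.3.3, statsmodels 0.14.6 and matplotlib 3.10.9 were used.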

Additional observations from a re-analysis of the deposited data

How the results depend on the processing

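Alternatives were centring, removal of a loess trend (span 0.3), quantile normalization, adding 32 before the logarithm, another filter (none, or the 50th percentile), averaged probe sets, only genes with 1 probe set, other fold limits, means over members, canonical members, and leaving out equal values; applying them to the subunits apart was added after seeing the data. No median over members or subunits and no member past 1.5-fold changed direction under any of them. Of the counts past 1.5-fold, that in TS against Ct (13) became 6 with centring, 8 with probe-set means and 2 with single probe sets, and 33 at a limit of 0.32 and 1 at 2-fold; the count in DN against Ct (1) became 2 at 0.32. In DN against TS (5) it became 3 with centring, 8 with quantile normalization, 3 with probe-set means and 2 with single probe sets. At 0.32 it became 29 and at 2-fold 1. With centring, 357 of all 10154 genes were 1.5-fold higher in TS than in Ct and 400 lower. For DN against TS these were 470 and 382. The shares at 0.32 and 2-fold are given above. For quantile normalization, probe-set means and single probe sets no share over all genes is given, so those counts lack a background. With single probe sets, which leave 18 members, the median in DN minus Ct was 0.015 in place of 0.07, and for the 5 small-subunit genes it was 0 in DN minus Ct, 0.069 in TS minus Ct and -0.069 in DN minus TS. No paired analysis was possible because each group has 1 array, and for the same reason no replicate could be left out. What counts as moved was set by the spread between probe sets of a gene, which says nothing on the spread between rats.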
